A study of Mus musculus with 6 samples.

Results

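The genes described here encode the nuclear subunits of the mitochondrial respiratory chain and of ATP synthase, measured by RNA-seq in whole kidneys of 8-week-old mice. Members were chosen by gene symbol, as the Nduf, Sdh, Uqcr, Cox and Atp5 subunit families, a rule that uses no measured value. The rule matched 83 rows of the expression table, and 81 of them had values, of 19503 rows with values in all. They comprised 36 genes of complex I, 4 of complex II, 8 of complex III, 16 of complex IV and 17 of complex V. Cox7b2 and Cox8c matched the rule but carried no values. The 81 genes lie on 19 chromosomes.

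The study compared 3 wild-type kidneys with 3 kidneys of the genotype labelled R26NICD2/+ pax8cre, called NICD2_Pax8 below, and its title asks whether active Notch2 can drive cyst growth. Kidneys of the second group carry, at Rosa26, an allele that Cre switches on and that codes for the nuclear-acting intracellular portion of the receptor Notch2. By the genotype label, Cre is expressed from Pax8, a gene active along the kidney tubule epithelium. The titles of the wild-type libraries also begin with NICD, so whether those mice carried the allele without the driver is not settled by the labels. The labels name a Pax8 Cre driver while the series title names an rtTA driver, which is not settled either. Nothing in the labels ties each library to its own animal, so p-values measure the spread between these libraries, which may be technical.

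Values are FPKM, fragment counts divided by transcript length and by library size. The step size of low values put the depth at an estimated 14600000 to 17800000 fragments per library. Notch2 was at 5.08 ± 0.771 FPKM in wild type and 12.8 ± 0.625 in NICD2_Pax8 (SD, n = 3 each), and the values do not separate the allele from the endogenous gene. Heyl, a direct target of Notch signalling, ranged from 0.94 to 2.26 FPKM in wild type and from 191.63 to 216.13 in NICD2_Pax8. Wild-type library 1 stands apart: 6 adrenal cortex markers summed to 3632 FPKM in it and to at most 1.63 in the other 5 libraries, and 5 white fat markers to 2520 FPKM against 48.18 to 612.7 elsewhere. Results are therefore also given without it. Kidney markers were present in the wild-type libraries, where 8 proximal tubule markers summed to 4101, 4989 and 6049 FPKM. In NICD2_Pax8 libraries 1, 2 and 3 the same 8 markers summed to 86.44, 470.9 and 244.5 FPKM, and all 8 fell.

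The respiratory chain passes electrons from NADH (complex I) and succinate (complex II) through ubiquinone to complex III, cytochrome c and complex IV, which reduces oxygen. Complexes I, III and IV pump protons across the inner mitochondrial membrane, and complex V, the ATP synthase, uses the gradient to make ATP. The kidney is rich in mitochondria, above all in the proximal tubule and thick ascending limb, where sodium reabsorption consumes ATP. The core of the chain is built from subunits of both the nuclear and the mitochondrial genome. The 13 subunits encoded by mitochondrial DNA are not analysed here.

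Transcripts of all 5 complexes were lower in the NICD2_Pax8 kidneys. Of the 80 members that passed the filter on low values (at least 1 FPKM in at least 3 libraries), 60 fell, or 75.0%, at an adjusted p under 0.05 (limma on log2(FPKM + 1), Benjamini-Hochberg over all 13500 genes tested). Over all genes tested, 16.2% fell. The members that rose were Cox7a2l and Cox6b2, against 45.1% of all genes tested, and 18 did not pass. The median log2 fold change was -0.54, with quartiles of -0.74 and -0.39, while the median of all genes tested was 0.32. A typical member stood at 68.9% of its wild-type mean. The remaining member, Ndufa7 of complex I, was listed at 0 FPKM in 4 of the 6 libraries and was not tested.

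**Figure D1:**
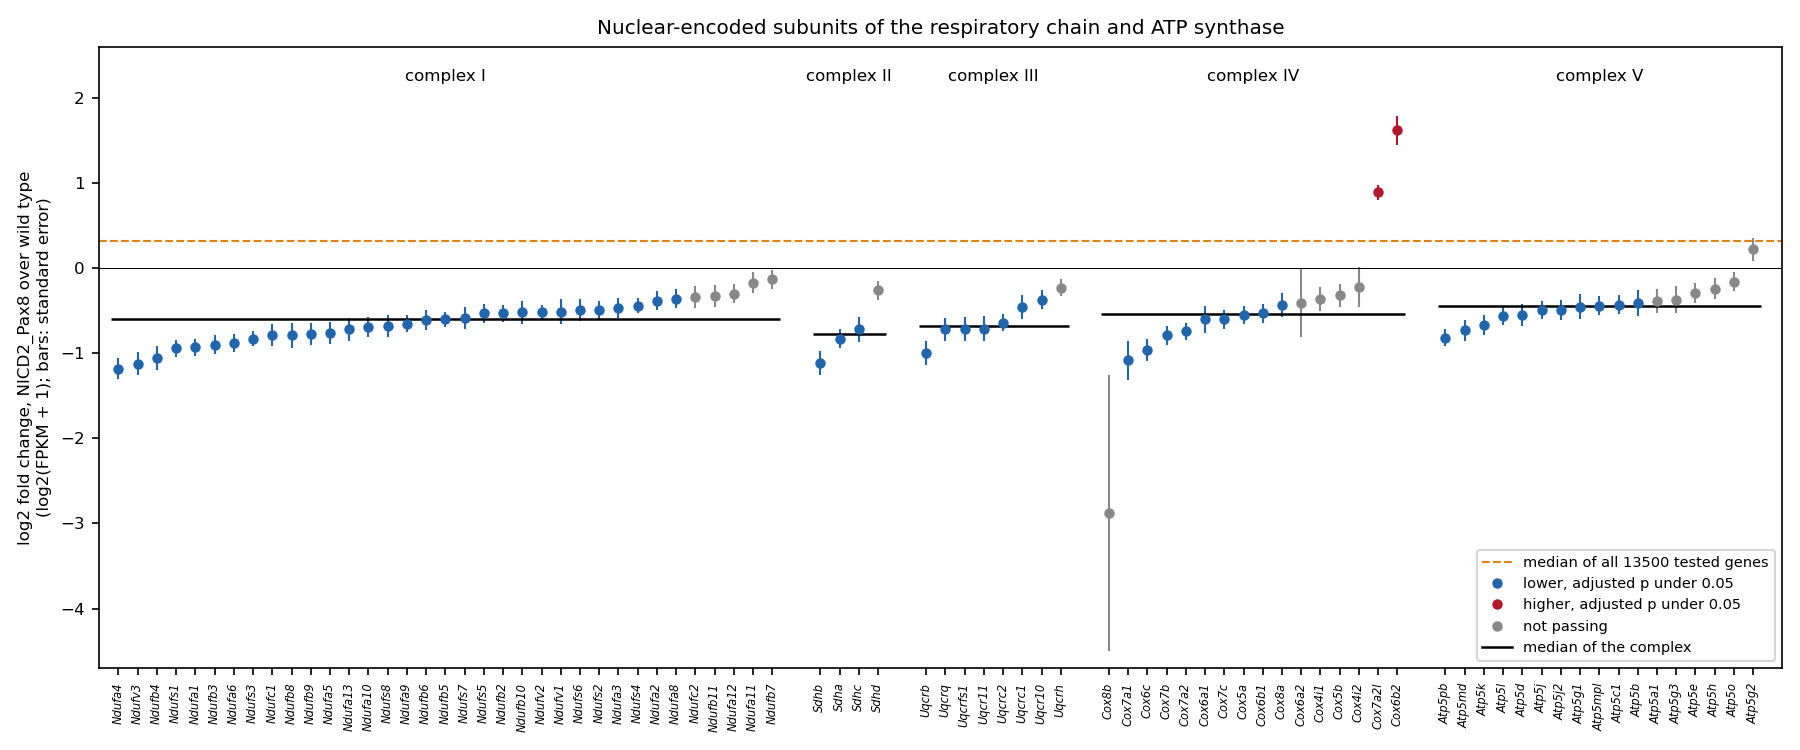
Log2 fold change (NICD2_Pax8 over wild type, log2(FPKM + 1) scale, bars are standard errors) of the 80 tested members, grouped by complex. Nearly all points lie below 0, with 60 passing the test as lower and Cox7a2l and Cox6b2 as higher.

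In 71 of the 80 members every NICD2_Pax8 library lay below every wild-type library, against 18.8% of all genes tested. In 2 every NICD2_Pax8 library lay above, against 49.9%, and in 7 the groups overlapped. FPKM values are shares of a library, so the scale matters. With the libraries scaled by the median of gene ratios, which brings the median of all genes from 0.32 to 0.02, 74 members fell (25.7% of all genes), 2 rose (28.7%), and the members' median was -0.89. Abundance matters too, because 70 tested members had a mean of at least 100 FPKM. Of those 70 members 56 fell and 1 rose. Of the 878 genes of that abundance in all, 38.3% fell and 37.6% rose, with a median of -0.08; after scaling 48.9% fell and 27.1% rose. This abundance class was chosen after the values had been seen. Without wild-type library 1, 63 members fell and 2 rose, beside 2062 genes lower and 6644 higher in all. The filter was applied again to the libraries left, so the set of tested genes changed. Cox4i2 and Cox8b were not tested without wild-type library 1. Without NICD2_Pax8 library 3, 50 fell, beside 1850 genes lower in all.

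The subunits ranked among the abundant transcripts of the kidney. In wild type 71 of the 81 members averaged 100 FPKM or more, and in NICD2_Pax8 64 did. The highest wild-type means were those of Cox8a at 1641 FPKM, Atp5b at 1633 and Ndufa4 at 1142, and the lowest was that of Cox4i2 at 1.33. Median levels in wild type were 187.1 FPKM for complex I, 291.3 for II, 351.4 for III, 386.6 for IV and 557.1 for V. The order of levels was much alike in the 2 groups (Pearson r = 0.95 on log2 means, Spearman rho = 0.96, over 81 genes that share the same libraries). Of the summed FPKM, all members together held 5.61%, 5.41% and 5.47% in wild-type libraries 1, 2 and 3. In the NICD2_Pax8 libraries they held 3.78%, 4.24% and 4.21%, all below the wild-type range.

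The NICD2_Pax8 libraries differed in how far they lay from wild type. The median difference of the members from the wild-type mean was -0.70 in NICD2_Pax8 library 1, -0.46 in library 2 and -0.52 in library 3, on the log2 scale. Library 1 was the lowest of the 3 for 54 of the 80 tested members, and library 2 the highest for 50. The order was the same in each of the 5 complexes, and was that of the summed proximal tubule markers, which were lowest in library 1 and highest in library 2. That order was not particular to the proximal tubule. Marker sums for the distal convoluted tubule, collecting duct, macrophages, white fat and skeletal muscle had it too. Those for the thick ascending limb, podocytes, endothelium, adrenal cortex, brown fat and heart did not. The median differences of the wild-type libraries were 0.02, -0.05 and 0.02. Of the markers of other tubule segments, 3 of 4 for the thick ascending limb fell, as did all 3 for the distal convoluted tubule and all 4 for the collecting duct. The exception was Umod, the uromodulin of the thick ascending limb, at 658.06, 1497.66 and 1197.81 FPKM in wild type and 964.01, 1462.68 and 1610.81 in NICD2_Pax8. Both podocyte and all 3 endothelial markers fell, and 1 of 3 macrophage markers rose. Of the markers of these lists only Pvalb, of the distal convoluted tubule, was at 0 in any NICD2_Pax8 library (0, 1.47 and 0 FPKM). Others came near 0, such as Slc22a8 of the proximal tubule (0.08, 11.6 and 0.27 FPKM) and Atp6v1g3 of the collecting duct (0.4, 1.08 and 0.78). The part of all these markers in the lower subunit values was not tested. In whole kidneys, fewer cells of a type and less RNA per cell cannot be told apart.

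**Figure D2:**
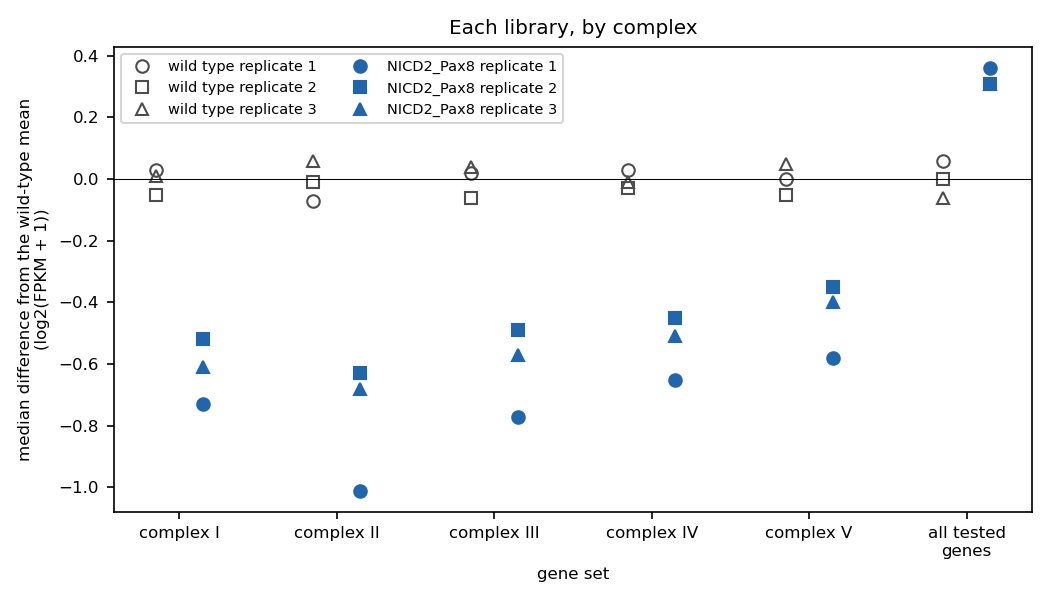
Median difference from the wild-type mean (log2(FPKM + 1)) over the members of each complex and over all tested genes, 1 point per library. NICD2_Pax8 library 1 is lowest in every complex, at -0.73 for complex I and -1.01 for complex II, while all tested genes sit at 0.31 to 0.36 in these libraries.

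By complex, the median log2 fold change was -0.60 for complex I, -0.77 for II, -0.68 for III, -0.54 for IV and -0.44 for V. After median-of-ratios scaling the values were -0.96, -1.13, -1.03, -0.89 and -0.79, in the same order. With quantile normalization they were -0.54, -0.60, -0.52, -0.62 and -0.54, so the order of the complexes depended on the normalization. Without wild-type library 1 the medians were -0.58, -0.80, -0.66, -0.54 and -0.48, with Cox4i2 and Cox8b of complex IV not tested. Members lower were 30 of 35, 3 of 4, 7 of 8, 9 of 16 and 11 of 17 for complexes I to V, against 16.2% of all genes tested. After median-of-ratios scaling they were 35 of 35, 4 of 4, 8 of 8, 11 of 16 and 16 of 17, against 25.7%. Most members given below as not passing thus passed after that scaling. Differences between the complexes were not tested.

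Complex I, NADH dehydrogenase, had 30 of 35 tested members lower and none higher. The 7 core subunits, homologous to those of the bacterial enzyme, all fell, with a median of -0.59. Among them Ndufs1, the largest subunit and a carrier of iron-sulfur clusters, was at 96.09, 109.82 and 108.53 FPKM in wild type and 51.48, 53.89 and 56.64 in NICD2_Pax8 (log2 fold change -0.94, SE 0.10, adjusted p = 0.000319, limma). Its groups were far apart, the highest NICD2_Pax8 value being below the lowest wild-type value. Ndufs1 overlaps Eef1b2 on the opposite strand, a gene of 124.2 FPKM on average, and the counting is not stated to use strand. Of the 28 accessory subunits, which surround the core, 23 fell, with a median of -0.61.

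Ndufa4 (chr6:11900372-11907675, minus strand) was the most abundant gene of complex I. It was at 1068.88, 1194.35 and 1164.05 FPKM in wild type and 458.78, 507.91 and 542.09 in NICD2_Pax8, 2.27-fold lower (log2 fold change -1.18, SE 0.12, adjusted p = 0.000323). The libraries of each group lay close together and the groups did not overlap. Ndufa4 was counted with complex I by its name, although its protein is now assigned to complex IV; counted there it left the medians at -0.60 for I and -0.55 for IV. Ndufb4, an accessory subunit of the membrane arm, was at 563.33, 499.84 and 532.43 FPKM in wild type and 212.13, 279.18 and 278.47 in NICD2_Pax8 (-1.06, SE 0.14, adjusted p = 0.000866). Ndufa1, a small membrane subunit needed for assembly, was at 205.96, 176.76 and 205.02 against 104.82, 101.12 and 101.4 FPKM (-0.93, SE 0.10, adjusted p = 0.000386). Both were separated between the groups, and the 3 NICD2_Pax8 values of Ndufa1 differed by less than 4 FPKM. Ndufv3, named after its values were seen, fell by 1.12 on the log2 scale. The members that did not pass were Ndufa11 (-0.17), Ndufa12 (-0.30), Ndufb7 (-0.13), Ndufb11 (-0.33) and Ndufc2 (-0.34).

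Complex II, succinate dehydrogenase, oxidises succinate in the citric acid cycle and feeds the electrons into the chain. It is encoded wholly in the nucleus, so all 4 subunits were measured. Sdhb, the iron-sulfur subunit (chr4:140961271-140979198, plus strand), was at 310.56, 319.18 and 338.91 FPKM in wild type and 124.71, 167.55 and 158.97 in NICD2_Pax8 (-1.11, SE 0.14, adjusted p = 0.000608). Sdha, the flavoprotein that binds succinate (chr13:74322255-74350240, minus strand), was at 254.52, 256.06 and 268.38 against 128.14, 154.8 and 155.13 FPKM (-0.83, SE 0.11, adjusted p = 0.000871). These 2 catalytic subunits had NICD2_Pax8 means of 46.6% and 56.2% of wild type. Of the membrane anchors, Sdhc was at 335.49, 355.43 and 372.54 against 175.27, 246.93 and 229.21 FPKM (-0.72, SE 0.15, adjusted p = 0.00546). Sdhd was at 156.22, 185.22 and 179.54 against 131.18, 153.42 and 149.95 FPKM (-0.26, SE 0.11, adjusted p = 0.0882). Sdhd did not pass, although its groups did not overlap, and without wild-type library 1 it passed (adjusted p = 0.035).

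Complex III, which hands electrons from ubiquinol to cytochrome c, had 7 of 8 members lower. All 3 core subunits fell, among them Uqcrc2, a structural core protein, at 257.05, 271.06 and 280.76 FPKM against 157.81, 173.39 and 186.25 (-0.64, SE 0.10, adjusted p = 0.00193). Of the 5 small subunits 4 fell. Uqcrb, a ubiquinone-binding subunit (chr13:66900576-66905350, minus strand), was at 625.47, 546.42 and 566.31 FPKM against 337.13, 246.72 and 289.38 (-1.0, SE 0.14, adjusted p = 0.00115). For Uqcrb NICD2_Pax8 library 1 was the highest of its group, unlike for most members. Uqcr11 was 1.62-fold lower (-0.71), Uqcrq 1.65-fold (-0.72) and Uqcr10, the most abundant of the complex, 1.29-fold (-0.37, adjusted p = 0.0227). The call for Uqcr10 was lost without wild-type library 2 (adjusted p = 0.0523), without wild-type library 3 (0.0763) and without NICD2_Pax8 library 3 (0.0727). Uqcrh, the hinge protein, did not pass (-0.23).

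**Figure D3:**
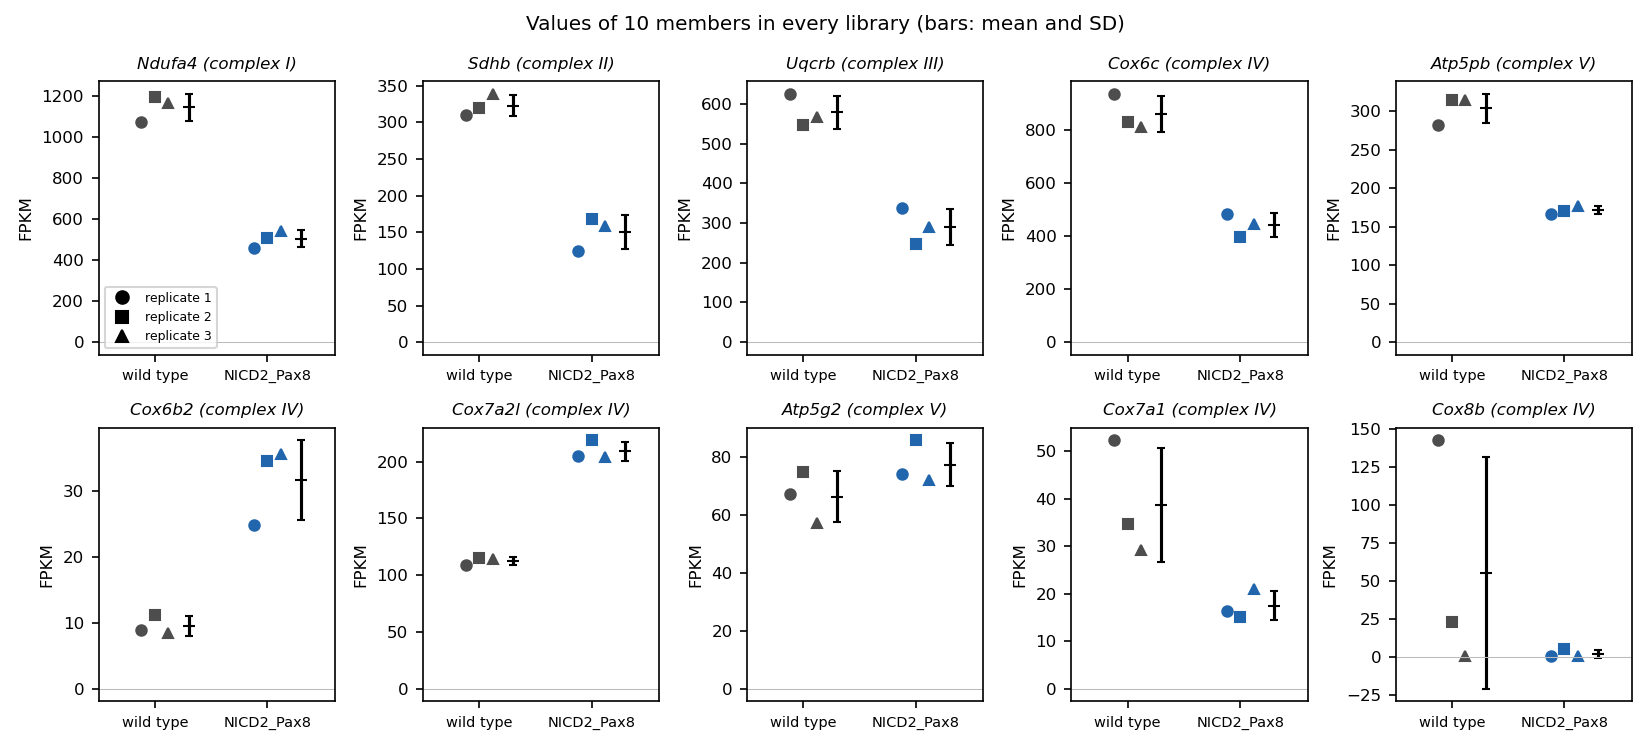
FPKM (linear axes) of 10 members in each of the 3 wild-type and 3 NICD2_Pax8 libraries, with mean and SD. The upper row shows 1 lower member per complex, all with separated groups, and the lower row shows Cox6b2 and Cox7a2l, which rose, and Atp5g2, Cox7a1 and Cox8b. The wild-type SD bar of Cox8b runs below 0 because 1 library carries most of the signal.

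Complex IV, cytochrome c oxidase, had 9 of 16 members lower and 2 higher, with log2 fold changes from -2.88 (Cox8b) to 1.62 (Cox6b2). It is the complex with the most isoforms that differ between tissues. Apart from the tissue isoforms and Cox7a2l, 8 of 10 members fell, with a median of -0.57 and an SD over the 10 genes of 0.20, against 0.93 over all 16. The genes left out include Cox8b and both members that rose, so the smaller SD follows from the choice. This split was drawn up after values of these data were known. Cox6c (chr15:35931976-35938246, minus strand) was at 936.83, 830.96 and 812.54 FPKM in wild type and 483.59, 395.16 and 444.91 in NICD2_Pax8 (-0.96, SE 0.13, adjusted p = 0.000854). Cox7a2 and Cox7b, further small subunits, were 1.67-fold and 1.73-fold lower (-0.74 and -0.79). Cox7a2 reached adjusted p = 0.000772 and Cox7b 0.0011. Cox7a2 overlaps Tmem30a on the same strand, a gene of 54.5 FPKM on average. Cox6a1 was at 1303.73, 1210.27 and 1254.59 against 681.63, 933.8 and 896.29 FPKM (-0.60, adjusted p = 0.0143).

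Cox8a, the most abundant member of all, was at 1702.76, 1594.63 and 1624.67 FPKM against 1077.3, 1299.47 and 1300.65 (-0.43, SE 0.14, adjusted p = 0.0315). The groups of Cox8a did not overlap, but its call was lost without wild-type library 2 or 3 or without NICD2_Pax8 library 2 or 3. Cox4i1, the ubiquitous form of subunit 4, was at 1033.04, 1020.46 and 1018.81 against 688.69, 932.56 and 784.33 FPKM (-0.36, SE 0.14, adjusted p = 0.0641). Cox4i1 did not pass, and its NICD2_Pax8 libraries spread widely. Without NICD2_Pax8 library 2 it passed (adjusted p = 0.0358). Cox5b did not pass either (-0.32).

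The members that rose belong by name to complex IV. Cox6b2, the isoform of subunit 6b known from testis (chr7:4751792-4753094, minus strand), was at 8.95, 11.23 and 8.39 FPKM in wild type and 24.73, 34.52 and 35.62 in NICD2_Pax8, 3.32-fold higher (1.62, SE 0.17, adjusted p = 0.000379). Its lowest NICD2_Pax8 value was above its highest wild-type value. The ubiquitous form Cox6b1 was at 839.81, 801.57 and 817.5 FPKM against 535.9, 591.68 and 579.01 (-0.53, adjusted p = 0.0051), and in both groups it was the far more abundant of the pair. Cox7a2l, a relative of subunit 7a that joins complexes III and IV into supercomplexes (chr17:83501917-83514333, minus strand), was at 108.58, 115.42 and 114 FPKM against 204.62, 218.65 and 203.98, 1.86-fold higher (0.89, SE 0.09, adjusted p = 0.000291). Scaling by the median of ratios gave 1.29 for Cox6b2 and 0.54 for Cox7a2l on the log2 scale, and both still passed.

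The other tissue isoforms were scarce in the kidney. Cox7a1, the form of heart, muscle and brown fat, was at 52.29, 34.72 and 29.23 FPKM in wild type and 16.36, 15.08 and 20.96 in NICD2_Pax8 (-1.08, SE 0.23, adjusted p = 0.00604). Without wild-type library 1 Cox7a1 still passed (-0.84, adjusted p = 0.00522), and its fold lower went from 2.22 to 1.83. Cox8b, also of muscle and brown fat, was at 142.39, 23.05 and 0.29 FPKM in wild type and 0.54, 4.84 and 0.25 in NICD2_Pax8 (-2.88, SE 1.62, adjusted p = 0.164). The groups of Cox8b overlapped and its value rested on single libraries. It passed without wild-type library 3 (-4.71, adjusted p = 0.00914), a fit that kept wild-type library 1. Without wild-type library 1 or 2, or without NICD2_Pax8 library 2, Cox8b was under the filter and was not tested. Its fold of 29.4 lower was 6.22 without wild-type library 1 and 139.9 without NICD2_Pax8 library 2. Markers of brown fat varied between the libraries as well. Ucp1, the uncoupling protein of brown fat, was at 97.56, 5.97 and 0.09 FPKM in wild type and 0, 0.94 and 0 in NICD2_Pax8, and Cidea, a lipid droplet protein, was at 86.07, 14.02 and 0.45 against 0.06, 2.46 and 0.06, both highest in wild-type library 1. Dio2 was highest there too, at 7.45, 0.49 and 0.01 against 1.19, 0.47 and 0.36 FPKM. Its value in NICD2_Pax8 library 1 was above those in wild-type libraries 2 and 3. Ppargc1a, at 13.12, 13.51 and 14.55 against 11.21, 9.96 and 10.59 FPKM, was highest in wild-type library 3. The list of 5 brown fat markers summed to 204.4, 34.07 and 15.1 FPKM against 12.46, 13.83 and 11.01. Elovl3 was at 0.24, 0.08 and 0 FPKM in wild type and at 0 in all 3 NICD2_Pax8 libraries. The part of this list in the Cox8b and Cox7a1 values was not tested. Cox4i2, the form induced at low oxygen, was at 0.77 to 2.18 FPKM (-0.22). Cox4i2 overlaps Bcl2l1 on the opposite strand, a gene of 64.8 FPKM on average. Cox6a2, of heart and muscle, was at 0.65 to 3.92 FPKM (-0.41). Neither Cox4i2 nor Cox6a2 passed. Without NICD2_Pax8 library 2 Cox6a2 passed (-0.89, adjusted p = 0.014), with its fold lower going from 1.28 to 2.94. That library, at 3.92 FPKM of Cox6a2, also had the highest sum of 5 skeletal muscle markers, 4.84 FPKM against 0.87 to 3.35 in the others. Acta1, Tnnt3, Ckm and Myh4 were highest in NICD2_Pax8 library 2 (2.41, 1.18, 0.09 and 0.01 FPKM), and Mylpf in wild-type library 3 (1.53). The 3 heart markers summed to 1.49, 1.22 and 0.44 FPKM in wild type and 7.13, 3.0 and 2.06 in NICD2_Pax8, highest in library 1, where Cox6a2 was at 0.96. Tnnt2 held most of these sums, at 1.34, 1.1 and 0.33 against 5.82, 2.28 and 1.62 FPKM. Actc1 was also higher in NICD2_Pax8, while Myh6 was lower, at 0.1, 0.12 and 0.11 against 0.02, 0.01 and 0.01 FPKM. The part of either list was not tested.

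Complex V, ATP synthase, had the smallest median difference on the deposited scale, with 11 of 17 members lower and none higher. Of the F1 head, which makes ATP, 3 of 5 fell, with a median of -0.41. Atp5b, the catalytic beta subunit, was at 1511.98, 1664.88 and 1722.61 FPKM in wild type and 1054.25, 1322.21 and 1321.4 in NICD2_Pax8 (-0.41, SE 0.15, adjusted p = 0.048). Atp5a1, the alpha subunit, was at 710.56, 828.03 and 889.85 against 539.02, 662.7 and 645.46 FPKM (-0.39, SE 0.14, adjusted p = 0.0501). The groups did not overlap for either gene, and both sat at the threshold. The call for Atp5b was lost without wild-type library 2 (adjusted p = 0.113) or 3 (0.135) and without NICD2_Pax8 library 1 (0.078), 2 (0.073) or 3 (0.0879), while Atp5a1 passed without wild-type library 1 (0.0217). The count of lower members in the complex was 7 without NICD2_Pax8 library 3, beside 1850 genes lower in all.

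Subunits of the stalk and membrane part had members that fell further. Atp5pb, subunit b of the peripheral stalk that holds the head in place (chr3:105942678-105960248, minus strand), was at 282.14, 314.45 and 314.98 FPKM against 167.18, 170.1 and 177.54 (-0.82, SE 0.10, adjusted p = 0.000541). In all, 2 of the 4 peripheral stalk subunits fell, and all 5 of the other membrane subunits did, with medians of -0.36 and -0.56. Among the latter Atp5md, a small subunit of the synthase dimer, was at 886.67, 771.85 and 841.22 against 509.9, 469.59 and 523.57 FPKM (-0.73, SE 0.12, adjusted p = 0.00171). Atp5k, subunit e at the dimer contact, was 1.59-fold lower (-0.67, adjusted p = 0.00313). Atp5pb, Atp5md and Atp5k were each separated between the groups. The grouping into core, accessory, head, stalk and ring subunits was drawn up after values of these data were known. Atp5e (-0.29), Atp5h (-0.24) and Atp5o (-0.16) did not pass.

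Subunit c, which forms the rotating ring, is encoded by 3 genes whose mature proteins are the same. Atp5g3 was the most abundant, at 595.07, 736.78 and 796.15 FPKM in wild type and 471.62, 607.32 and 564.28 in NICD2_Pax8 (-0.37, SE 0.16, adjusted p = 0.0859), with overlapping groups. Without wild-type library 1 it passed (adjusted p = 0.0254). Atp5g1 was at 491.22, 510.88 and 549.96 against 315.87, 436.87 and 391.02 FPKM (-0.45, SE 0.15, adjusted p = 0.0324), a call lost without wild-type library 2 or 3 or without NICD2_Pax8 library 1 or 3. Atp5g2 (chr15:102662864-102671297, minus strand) was at 67.3, 74.79 and 57.1 against 74.24, 85.82 and 72.26 FPKM (0.22, SE 0.13, adjusted p = 0.178). The groups of Atp5g2 overlapped, and its value turned to -0.12 after median-of-ratios scaling.

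Ratios within a library depend little on its scaling, so 8 isoform pairs were compared as log2 ratios, with 1 added to each FPKM, by an exact two-sided permutation test, for which 0.1 is the smallest p that 3 against 3 allows. Cox6b2 over Cox6b1 went from -6.29 ± 0.22 in wild type to -4.14 ± 0.21 in NICD2_Pax8 (SD, n = 3 each), a difference of 2.15 (exact p = 0.1, 0.4 after Benjamini-Hochberg adjustment over the 8 pairs). Atp5g2 over Atp5g3 went from -3.40 ± 0.34 to -2.80 ± 0.15 (SD, n = 3 each), a difference of 0.59 with the same exact p values of 0.1 and 0.4. The libraries of the groups were fully separated in these 2 pairs. They overlapped in the other 6, whose differences were -2.45 for Cox8b over Cox8a, -0.34 for Cox7a1 over Cox7a2, -0.08 for Atp5g1 over Atp5g3, 0.14 for Cox4i2 over Cox4i1, 0.19 for Cox6a2 over Cox6a1 and 0.24 for Ndufa4l2 over Ndufa4.

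Nuclear respiratory genes are known targets of the factors NRF1, GABPA of the ETS family, YY1 and the estrogen-related receptors (ERR). RefSeq promoters (GRCm38.p6, from 250 bases before to 50 after the gene start) were found for 67 of the 81 members and searched on both strands for 4 motifs. The NRF1 motif, GCGC followed by any base and TGCGC, was in 17 members (25.4%), against 4.60% of all 32851 promoters and 11.1% of the promoters of tested genes. The YY1 motif AAGATGGC was in 10 members (14.9%, against 2.75% and 5.11%), the ETS motif CCGGAAGT in 5 (7.46%, against 3.89% and 8.80%) and the ERR motif TNAAGGTCA in 3 (4.48%, against 1.28% and 0.980%). Of the 17 members with the NRF1 letters 11 fell, with a median of -0.46, and of the 49 tested members without them 39 fell, with a median of -0.56. All 10 members with the YY1 letters fell, as did 40 of the 56 tested members without them, and the median was -0.54 in both sets. Shown here are the 250 bases before the gene start of Sdha and Ndufb4, which fell, of Atp5g2, which did not pass, and of Cox6b2 and Cox7a2l, which rose, as chosen after their values were seen. The sequences are those of RefSeq on GRCm38.p6, written 5′ to 3′ along the gene, and capitals mark matches to the 4 motifs on either strand.
Sdha, chr13:74350241-74350490, minus strand: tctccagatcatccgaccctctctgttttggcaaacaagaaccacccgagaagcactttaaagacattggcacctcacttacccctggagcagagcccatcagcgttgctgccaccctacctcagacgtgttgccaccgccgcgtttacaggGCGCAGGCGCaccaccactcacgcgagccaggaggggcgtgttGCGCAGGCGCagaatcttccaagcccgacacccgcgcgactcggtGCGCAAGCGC
Ndufb4, chr16:37654369-37654618, minus strand: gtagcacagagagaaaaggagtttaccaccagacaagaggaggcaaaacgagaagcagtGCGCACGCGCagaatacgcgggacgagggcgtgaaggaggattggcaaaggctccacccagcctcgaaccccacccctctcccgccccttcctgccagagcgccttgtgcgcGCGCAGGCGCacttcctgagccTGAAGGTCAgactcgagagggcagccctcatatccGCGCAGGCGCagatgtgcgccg
Atp5g2, chr15:102671048-102671297, minus strand: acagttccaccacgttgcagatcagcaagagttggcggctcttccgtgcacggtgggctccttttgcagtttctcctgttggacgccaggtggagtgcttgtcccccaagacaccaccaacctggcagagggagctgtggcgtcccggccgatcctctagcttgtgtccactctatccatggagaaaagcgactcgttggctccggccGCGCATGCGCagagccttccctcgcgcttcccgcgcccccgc
Cox6b2, chr7:4753095-4753344, minus strand: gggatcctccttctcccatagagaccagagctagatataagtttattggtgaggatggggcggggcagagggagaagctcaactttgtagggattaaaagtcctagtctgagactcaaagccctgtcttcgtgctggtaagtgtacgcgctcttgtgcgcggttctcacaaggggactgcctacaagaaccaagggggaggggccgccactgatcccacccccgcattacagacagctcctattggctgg
Cox7a2l, chr17:83514334-83514583, minus strand: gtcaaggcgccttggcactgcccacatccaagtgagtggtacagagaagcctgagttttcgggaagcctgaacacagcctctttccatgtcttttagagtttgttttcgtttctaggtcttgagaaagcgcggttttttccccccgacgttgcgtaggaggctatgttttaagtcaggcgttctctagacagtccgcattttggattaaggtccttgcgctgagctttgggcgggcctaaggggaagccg

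Sdha held 3 NRF1 matches and Ndufb4 held 3 together with an ERR match. Atp5g2 held 1 stretch that matches the NRF1 motif on both strands, and Cox6b2 and Cox7a2l held none of the 4 motifs in this window. A match describes the letters and does not show binding.

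Other genes of the same pathway were taken from lists drawn up with earlier results of these data known, and their counts stand beside 16.2% of all tested genes lower and 45.1% higher (25.7% and 28.7% after scaling). No difference between these lists and the members was tested. Of 5 measured genes that the symbol rule leaves out, for subunits, carriers and the ATP synthase inhibitor Atpif1, 4 fell and none rose, with a median of -0.61. They include Cycs, the electron carrier cytochrome c, at 185.89, 182.37 and 181.21 FPKM in wild type and 84.85, 88.73 and 127.89 in NICD2_Pax8 (-0.88, SE 0.16, adjusted p = 0.0035). The assembly factors of the 5 complexes, which build the complexes without being part of them, made up 47 measured genes. Of these 15 fell and 4 rose, with a median of -0.13, and after median-of-ratios scaling 27 fell and 1 rose (-0.47). Complex I assembly factors had 8 of 14 lower (median -0.48), among them Ecsit at -0.80. Complex II and III assembly factors had 1 of 4 and 1 of 6 lower, near the share of all genes before scaling. These were Sdhaf3 and Uqcc1, each at -0.42. After scaling 2 of 4 and 3 of 6 were lower for complexes II and III. For complexes I, IV and V the scaled counts were 9 of 14, 13 of 20 and 1 of 4. For complex IV 5 of 20 fell and 3 rose, Cox16 at -0.84 having the smallest p of those lower and Coa4 at 0.76 of those higher. For complex V, Tmem70 fell (-0.47) and Atpaf1 rose (0.39), though Atpaf1 was at 0.05 after scaling and did not pass.

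Genes for ubiquinone synthesis, the carrier between complexes I, II and III, fell in 7 of 12 cases and rose in none (median -0.43). Coq10b, a ubiquinone-binding protein, was at 43.4, 36.39 and 42.65 FPKM against 18.54, 15.36 and 15.4 (-1.26, SE 0.12, adjusted p = 0.000236). Coq8a, named after its values were seen, fell further (-1.63). Of 3 supercomplex factors Higd2a fell (-0.88, adjusted p = 0.00161), 1 more fell, and the one that rose is Cox7a2l, already described. Of 21 other mitochondrial genes, for protein import, fusion and the citric acid cycle among others, 9 fell and 4 rose, with a median of -0.07. After scaling 14 fell and none rose. Mfn2, a fusion protein of the outer membrane, fell (-0.65), and Tomm22, an import receptor, rose (0.56) but did not pass after scaling (0.21). Citrate synthase (Cs), of the citric acid cycle, was at 168.66, 138.17 and 131.15 FPKM in wild type and 138.71, 151.29 and 152.19 in NICD2_Pax8 (0.02, adjusted p = 0.892), and it fell after scaling (-0.33, adjusted p = 0.0323). Mitochondrial content was not measured. Cs was named after its values were seen.

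**Figure D4:**
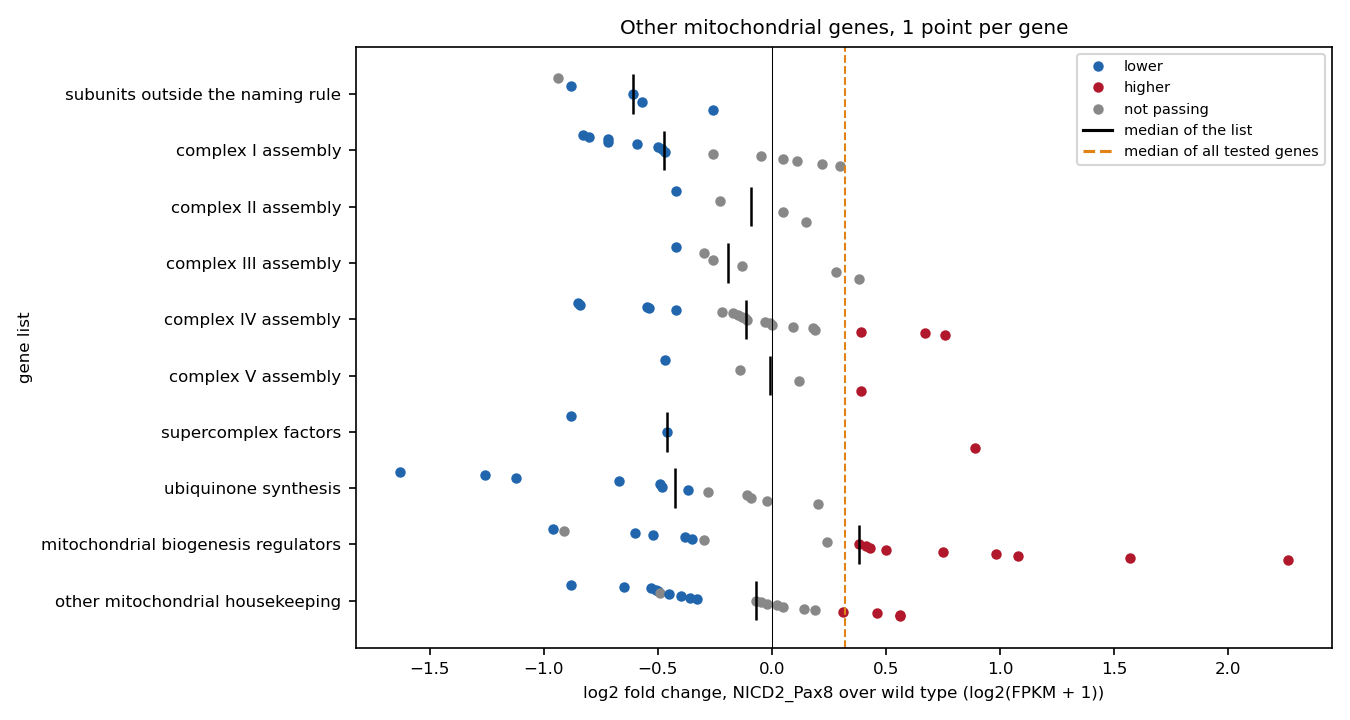
Log2 fold change (log2(FPKM + 1) scale) of each measured gene in 10 lists of other mitochondrial genes, with the median of each list as a black bar and the median of all tested genes as a dashed line at 0.32. The list labelled subunits outside the naming rule, which also holds Cycs and Atpif1, and the complex I assembly factors lie lowest (medians -0.61 and -0.48). The regulators spread from below -0.9 to Perm1 at 2.26.

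Regulators of mitochondrial gene expression went both ways, with 9 of 17 higher and 5 lower (5 and 7 after scaling). Over all genes tested 45.1% rose (28.7% after scaling), so the share of regulators that rose was near that of all genes. Esrra, an estrogen-related receptor that drives respiratory genes, was at 48.62, 49.69 and 49.64 FPKM in wild type and 28.74, 37.67 and 31.09 in NICD2_Pax8 (-0.60, SE 0.12, adjusted p = 0.00438). Ppargc1a, its coactivator PGC-1alpha, was at 13.12, 13.51 and 14.55 against 11.21, 9.96 and 10.59 FPKM (-0.35, SE 0.10, adjusted p = 0.0194). Both were separated between the groups and passed after scaling. Perm1, a regulator acting with PGC-1 and ERR in muscle, was at 2.59, 3.26 and 2.63 against 15.79, 16.67 and 19.4 FPKM, 6.12-fold higher (2.26, SE 0.13, adjusted p = 5.36e-05). Pprc1, a PGC-1 relative, and Nrf1, the factor whose motif was searched, rose as well (1.57 and 1.08, and 1.27 and 0.77 after scaling), and were named after their values were seen.

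In the authors' deposited table of their own comparison, 75 of the 81 members were lower at a q under 0.05 and 2 higher, against 21.5% and 21.3% of the 19439 genes with a q. The median log2 fold change of the members in the authors' deposited table was -0.89. By complex the authors' deposited table gave 35 of 36 lower for complex I, 4 of 4 for II, 8 of 8 for III, 12 of 16 for IV and 16 of 17 for V. It rests on the same 6 libraries.

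Many of these genes have processed pseudogenes or overlapping neighbours, and how fragments shared between them were counted is not given in the sources used here. Of the 81 members 21 overlap another row of the table.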

How the data were processed

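RNA was extracted with Trizol from frozen whole kidneys and sequenced from Illumina TruSeq libraries, per the labels' protocols. The authors deposited 1 table with FPKM values per gene for each library, together with their own log2 fold change, p-value and q-value for the comparison, per the file headers. Bowtie 0.12.2 and the build mm8 are listed in the submitters' processing notes; the counting tool is not given in the sources used here. The authors' q-values came from DESeq2, per the file headers, and those headers name a Poisson-based test for pairs of single libraries, not used here. Gene positions in the table were read as GRCm38, since 86.6% of 17966 matched genes (69 of the 81 members) have the same start and end as in RefSeq GRCm38.p6. FPKM hold no counts, so the depth was estimated from the step size of low values, of which 68.4 to 74.4% fell within 0.15 of a whole fragment. Too few were whole for a count test.

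Of 23873 rows, 4370 had no values. Values were tested as log2(FPKM + 1), which understates changes of low genes, with limma 3.58.1 (trend, R 4.3.3), 3 wild-type against 3 NICD2_Pax8 libraries with no covariates. Genes with at least 1 FPKM in at least 3 libraries were kept, and p-values were adjusted over all 13500. The procedure was checked on simulated data. Fold changes in FPKM are ratios of group means. The members, gene lists and tests were chosen with earlier results of these data known. The genes named were, per complex, the 2 most abundant, the 3 lower and 2 higher members with the smallest p, all of complex II, the isoform pairs, and per other list the gene with the smallest p in each direction, with Ppargc1a and Esrra. All rule matches with values are subunit genes or Cox7a2l. Alternatives covered pseudocounts of 0.1 and 5, no filter, other scalings, stricter thresholds, a replicate block, leaving out each library and the authors' q.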

Additional observations from a re-analysis of the deposited data

How the results depend on the processing

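The count of members lower was 60 as reported and 50 to 63 over the fits leaving out 1 library. Those fits had 1625 to 2062 genes lower in all. The filter was applied again in each of them, so the set of tested genes varied. Replicate numbers are shared by the groups, but deviations of same-numbered libraries correlated at 0.0951, -0.0498 and 0.0056, wild-type library 2 correlated best with NICD2_Pax8 library 3 (0.2), and the numbers were not taken as pairs. With the replicate as a block 62 members fell and 2 rose, beside 2164 genes lower and 5818 higher in all. Requiring the log2 fold change to reach 1 in size left 5 members lower and 1 higher (3 in complex I, 1 in II, 0 in III, 1 in IV and 0 in V), 1009 genes lower and 2427 higher in all, and 3 lower and 3 higher in the other lists. At an adjusted p under 0.01, 6 members of complex V and 26 genes of the other lists were lower, beside 1543 genes in all. Among the fits leaving out 1 library the complex V count ranged from 7, without NICD2_Pax8 library 3, to 13. Genes lower over the whole table were 3473 with median-of-ratios scaling, 3387 with upper quartile scaling, 3558 with quantile normalization, 3600 with median-of-ratios scaling without wild-type library 1 and 4184 by the authors' deposited q; genes higher were 3873, 3993 and 3866 for the first 3. In the other lists 65, 64 and 67 genes were lower with median-of-ratios scaling, upper quartile scaling and, without wild-type library 1, median-of-ratios scaling again, and 7, 9 and 7 higher, with 11 higher after quantile normalization and 7 by the authors' q. The medians of complexes I to V were -0.96, -1.13, -1.03, -0.89 and -0.79 with median-of-ratios scaling, -0.92, -1.09, -1.0, -0.86 and -0.76 with upper quartile scaling, and -0.99, -1.22, -1.08, -0.96 and -0.90 with median-of-ratios scaling without wild-type library 1, and that of III was -0.52 with quantile normalization. Signs turned for Atp5g2 (-0.12, -0.09 and -0.17 in those 3 scalings, -0.10 in the authors' deposited table) and for 4 isoform ratios: Cox4i2 over Cox4i1 (-0.02 without wild-type library 2, -0.01 without NICD2_Pax8 library 1, up to 0.38 without wild-type library 1), Cox6a2 over Cox6a1 (-0.12 with a pseudocount of 0.1, -0.21 without NICD2_Pax8 library 2, up to 0.55 without NICD2_Pax8 library 3), Atp5g1 over Atp5g3 (0.00 without wild-type library 1) and Ndufa4l2 over Ndufa4 (-0.04 without wild-type library 2, up to 0.73 without wild-type library 1). The cause was not tested. Depth limits Cox4i2 and Cox6a2, at 0.65 to 3.92 FPKM.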
